A study of Mus musculus with 4 samples.

Results

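Dendritic cells are the marrow-derived cells that take up antigen and present it to T cells. They arise from progenitors that need the receptor FLT3, and they divide into plasmacytoid cells, which make type I interferon, and conventional cells of the cDC1 and cDC2 kinds. Each kind is recognised by a few transcription factors and surface proteins. The set described here holds 10 such genes, chosen by their symbol in the platform annotation and without the MHC class II genes. They are the transcription factor genes Tcf4, Irf4, Batf3 and Zbtb46, the surface receptor genes Siglech, Itgax and Cd209a, and the chemokine receptor genes Ccr7, Ccr9 and Xcr1. These 10 genes had 12 probes, out of 17034 named genes on the array.

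The study compared lineage-negative bone marrow cells of the mouse, which are marrow cells from which mature blood cells have been removed, in 2 states. In FLT3-ITD cells, FLT3 carrying an internal tandem duplication, the mutation common in acute myeloid leukaemia, had signalled for 48 h. The controls carried the empty vector pMIG. All 4 samples were labelled WT, with 2 Illumina bead arrays per group. The strain, the age of the animals, the way the vector was brought in and the origin of the replicates are not given in the labels, so each p-value reflects how far these arrays scatter, which may be technical. Each array read 26512 probes, 51.5% to 53.5% of them with a detection p under 0.05. The progenitor genes Cd34 and Myb were detected on all 4 arrays. Of others in that list, Procr was detected on neither FLT3-ITD array and Slamf1 on 1 array of each group. No probe was listed under Kit or Ly6a. A gene was tested if a probe of it had a detection p under 0.05 on at least 2 of 4 arrays. Of the genes with a probe listed for mature lineages, 12 of 12 neutrophil genes and 13 of 14 monocyte and macrophage genes were tested. So were 11 of 11 mast cell, basophil and eosinophil genes, 9 of 10 megakaryocyte and platelet genes and 8 of 9 erythroid genes. The neutrophil granule gene Ltf read 36363.6 and 36042.7 in FLT3-ITD cells, against 31952.8 and 32412.5 in pMIG cells (raw intensity). After normalization the groups overlapped for Ltf, with log2 signals of 15.134 and 15.045 in FLT3-ITD, against 14.977 and 15.063 in pMIG. In the lymphoid lists 4 of 9 T cell genes, 6 of 10 NK cell genes and 7 of 9 B lymphoid genes were tested. Cd3e, Cd4, Pax5 and Ms4a1 were not, while Cd3d, Cd79b, Nkg7 and Prf1 were detected on all 4 arrays.

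Of the 10 dendritic cell identity genes, 8 were tested by that rule and Ccr9 and Xcr1 did not. In limma's moderated model 0 of the 8 passed a Benjamini-Hochberg adjusted p of 0.05, and 1, Irf4, had an unadjusted p under 0.05. Over all 9948 genes tested 0.191% passed (0.171% higher and 0.0201% lower in FLT3-ITD) and 18% had an unadjusted p under 0.05, so the members' counts are close to those of all genes. The normalized values of the groups did not overlap for 5 of the 8, against 50.6% of all genes tested. Irf4, Tcf4, Batf3 and Siglech were higher and Ccr7 lower in FLT3-ITD, where 23.8% of all genes tested were apart as higher and 26.8% as lower. In raw intensity Irf4 and Ccr7 were also apart, while the groups overlapped for Tcf4, Batf3 and Siglech. The share of all genes apart in raw intensity was not computed. The median difference of the 8 was 0.17 on the log2 scale (FLT3-ITD minus pMIG), against -0.02 for all genes tested. The array measures RNA of a mixed population, in which more cells of a type and more RNA per cell cannot be told apart. With 2 arrays a group, the smallest p an exact permutation test allows is 0.333, and the p-values given here borrow their estimate of spread from other genes.

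**Figure D1:**
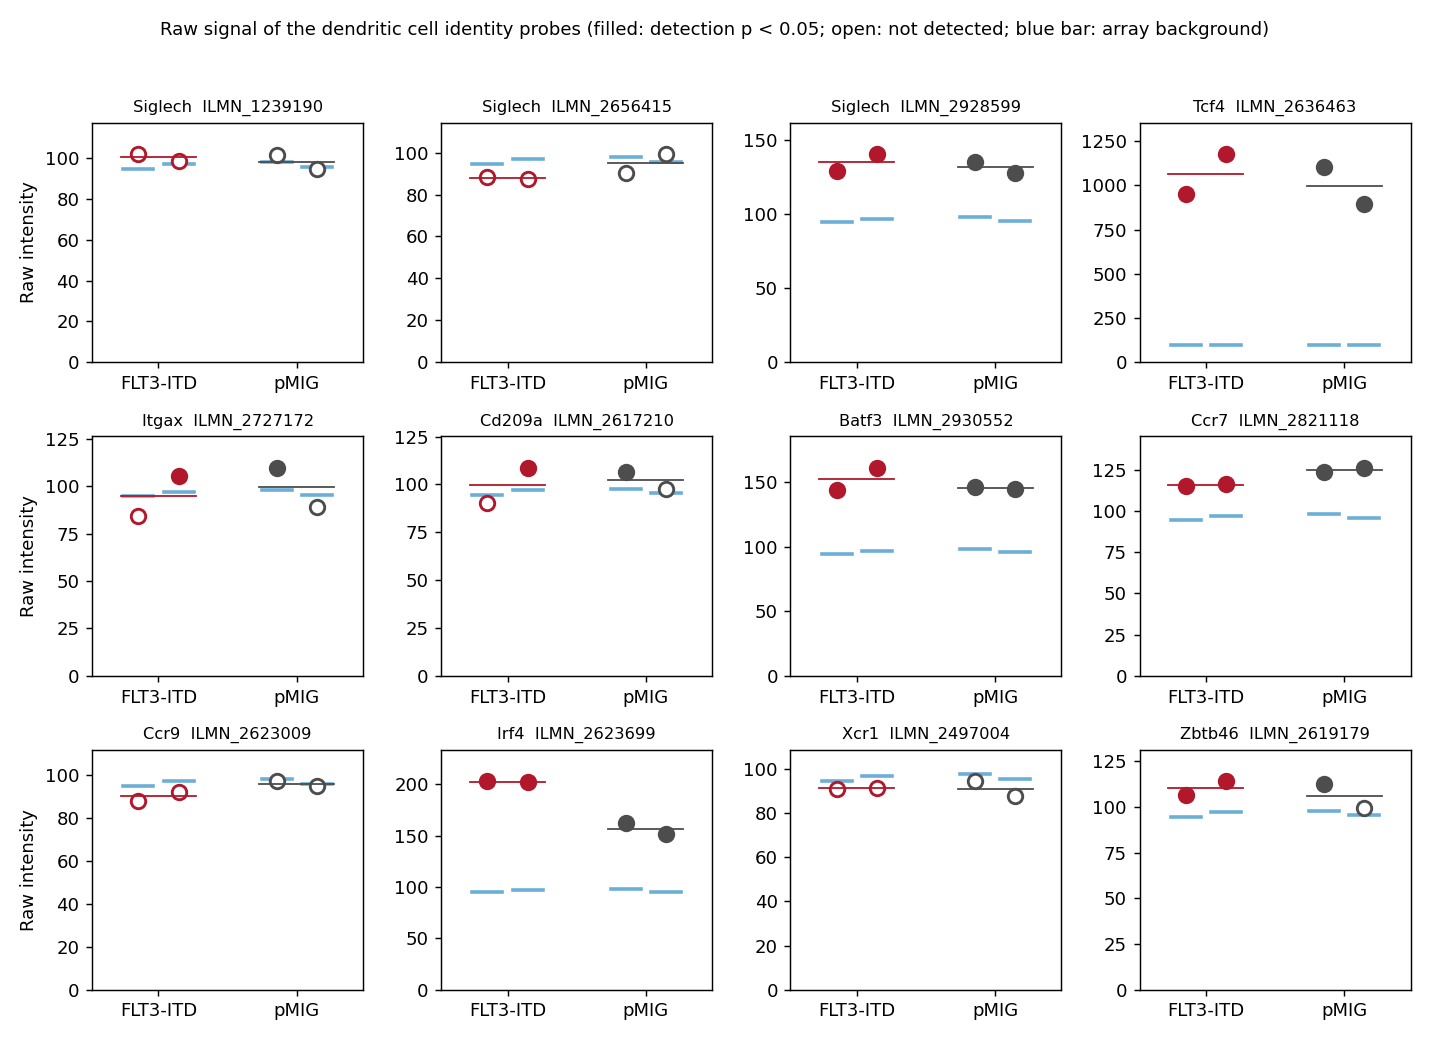
Raw intensity (linear scale, each panel from 0) of the 12 probes on the 2 FLT3-ITD arrays (red) and the 2 pMIG arrays (grey), with replicate 1 left of replicate 2 in each group and the horizontal line at the group mean. Filled points had a detection p under 0.05 and blue bars mark the estimated background of 94.7 to 97.9. Irf4 read 202.9 and 202.3 in FLT3-ITD, above both pMIG arrays, while the probes of Ccr9 and Xcr1 lay at background on every array.

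Irf4 had the largest difference of the 8 tested members and the one unadjusted p under 0.05 among them. IRF4 directs the development of cDC2 cells and also acts in B lymphocytes and plasma cells. Its probe (ILMN_2623699) read 202.9 and 202.3 (raw intensity) in FLT3-ITD cells, against 162 and 151.8 in pMIG cells. Both FLT3-ITD arrays were above both pMIG arrays, and the 2 raw FLT3-ITD values almost coincided. Normalized, those 2 were 7.04 and 6.88 on the log2 scale. After background correction and normalization the log2 signal averaged 6.96 ± 0.11 in FLT3-ITD and 6.23 ± 0.07 in pMIG (SD, n = 2 each). That is a 1.66-fold difference (95% interval 1.33 to 2.08), or 0.73 on the log2 scale (SE 0.12), with an unadjusted p of 0.00246 and an adjusted p of 0.128 in limma. The gene therefore did not pass over all genes. The call depended on how the spread was modelled and also on the background correction and its offset. With a variance trend the difference stayed at 0.73 and the adjusted p was 0.0164, where 10.2% of all genes passed. With the trend and robust moderation it was 0.0103, where 10.5% of all genes passed, 5.18% higher. Without background correction the difference was 0.40 and the adjusted p 0.00865.

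The region before the Irf4 start is shown because Irf4 is the member on which the comparison turns. Sequences are the 250 bases before the gene start in RefSeq (GRCm38.p6), 5′ to 3′, with capitals at matches to any of 5 motifs searched on both strands. The motifs were a pair of GAAA separated by 2 bases (bound by IRF factors), TGANTCA (AP-1 and BATF factors), CANNTG (the E-box bound by TCF4 and its relatives), GAGGAAG (PU.1) and TTCNNNGAA (STAT factors, which FLT3-ITD activates). Of all 32841 such windows, 2.98% hold the IRF motif, 6.75% the AP-1 motif, 66.2% an E-box, 10.6% the PU.1 motif and 7.02% the STAT motif. Of the members, 8 had a window in the table, Ccr7 and Tcf4 being the other two. Shown are the windows of the 3 among them whose probe was detected on all 4 arrays, Irf4 at chr13:30748983-30749232 (plus strand), Batf3 at chr1:191098164-191098413 (plus strand) and Siglech at chr7:55767934-55768183 (plus strand).
Irf4: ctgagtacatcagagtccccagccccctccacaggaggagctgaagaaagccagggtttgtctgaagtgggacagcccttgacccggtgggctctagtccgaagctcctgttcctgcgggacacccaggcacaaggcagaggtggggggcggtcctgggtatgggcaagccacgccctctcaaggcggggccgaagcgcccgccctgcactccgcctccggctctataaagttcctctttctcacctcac
Batf3: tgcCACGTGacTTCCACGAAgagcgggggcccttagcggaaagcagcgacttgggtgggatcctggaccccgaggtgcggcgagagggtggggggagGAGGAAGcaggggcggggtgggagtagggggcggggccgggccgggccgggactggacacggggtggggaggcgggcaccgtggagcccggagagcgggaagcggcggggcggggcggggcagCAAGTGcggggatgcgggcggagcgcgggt
Siglech: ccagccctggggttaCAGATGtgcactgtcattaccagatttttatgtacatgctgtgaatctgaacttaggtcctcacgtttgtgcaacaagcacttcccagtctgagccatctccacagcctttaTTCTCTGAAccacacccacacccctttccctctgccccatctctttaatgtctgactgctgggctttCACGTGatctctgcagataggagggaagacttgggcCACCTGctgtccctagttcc
The Irf4 window holds 0 matches to the 5 motifs, which says only that these letters are not in it. The Batf3 window holds 2 E-boxes, a STAT motif from -239 to -231 and a PU.1 motif from -153 to -147, counted from the start. The Siglech window holds 3 E-boxes and a STAT motif from -123 to -115, and no matches overlap in either window. Of the other windows of members, that of Itgax holds an AP-1 motif from -56 to -50 and that of Zbtb46 an AP-1 motif from -61 to -55. E-boxes number 5 in the Zbtb46 window, 2 each in those of Cd209a and Ccr9 and 1 in that of Xcr1. The IRF motif is in 0 of the 8.

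Tcf4 encodes E2-2, the E protein that sets and maintains plasmacytoid identity and is also used by early B cells. Its probe (ILMN_2636463) was far above background everywhere, at a raw intensity of 950.8 and 1178.1 in FLT3-ITD cells, against 1104.9 and 893.1 in pMIG cells. The raw values overlapped between the groups, with FLT3-ITD replicate 2 and pMIG replicate 1 the higher of their pairs. Normalized log2 signals averaged 9.97 ± 0.14 for FLT3-ITD and 9.81 ± 0.04 for pMIG (SD, n = 2 each), which differ by 0.16 (SE 0.12, adjusted p = 0.554 in limma). The 95% interval of the fold was 0.890 to 1.40. With median scaling in place of quantile normalization the normalized values of the groups overlapped too.

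Batf3 encodes the AP-1 type factor needed for cDC1 cells. Raw intensities of its probe (ILMN_2930552) were 144.2 and 161.2 in FLT3-ITD cells, against 145.9 and 144.3 in pMIG cells. FLT3-ITD replicate 2 stood above the other 3 arrays, which lay together. The raw groups thus overlapped, and the normalized log2 values were 6.12 and 6.29 in FLT3-ITD, against 5.85 and 6.11 in pMIG. The log2 difference was 0.22 (SE 0.15, adjusted p = 0.488), with a 95% interval of the fold of 0.892 to 1.53. Zbtb46 encodes a zinc finger factor that marks conventional dendritic cells and their committed precursors. Its probe (ILMN_2619179) read 106.6 and 114 in FLT3-ITD cells, against 112.3 and 99.2 in pMIG cells, and was not detected on pMIG replicate 2. The groups overlapped, and the difference of 0.30 (SE 0.19, adjusted p = 0.465) was 0.085 without background correction.

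None of the surface receptor genes passed, and their signals were low. Siglech encodes a sialic acid-binding lectin used to recognise plasmacytoid dendritic cells in the mouse. Of its 3 probes only ILMN_2928599 was detected, reading 129.4 and 140.8 in FLT3-ITD cells, against 135.4 and 127.8 in pMIG cells. Raw values of the groups overlapped, and the difference in normalized log2 signal was 0.17 (SE 0.12, adjusted p = 0.496; fold 95% interval 0.910 to 1.40). The other two probes lay between 87.3 and 102 in FLT3-ITD cells and between 90.5 and 101.5 in pMIG cells, and neither was detected on any array.

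Itgax encodes CD11c, the integrin chain shared by all conventional dendritic cells and also carried by some monocytes and macrophages. Its probe (ILMN_2727172) read 84.3 and 105.2 in FLT3-ITD cells, against 109.8 and 89.2 in pMIG cells. It was detected on FLT3-ITD replicate 2 and pMIG replicate 1 and below background on the other two arrays, so the larger differences were within the groups. The log2 difference was -0.085 (SE 0.27, adjusted p = 0.896), with a 95% interval of the fold of 0.578 to 1.54. It turned to 0.16 without FLT3-ITD replicate 1 and to 0.20 without pMIG replicate 1. Cd209a encodes a C-type lectin related to human DC-SIGN, found on cDC2 and monocyte-derived dendritic cells. Its probe (ILMN_2617210) read 90.3 and 108.8 in FLT3-ITD cells, against 106.7 and 97.6 in pMIG cells, with detection on the same 2 arrays as Itgax. The log2 difference of 0.014 (SE 0.24, adjusted p = 0.983) changed sign under 4 of 14 alternatives, with values from -0.28 to 0.31. Detection on exactly those 2 arrays was common: it held for 307 of the 1375 named probes detected on exactly 2 arrays (22.3%).

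**Figure D2:**
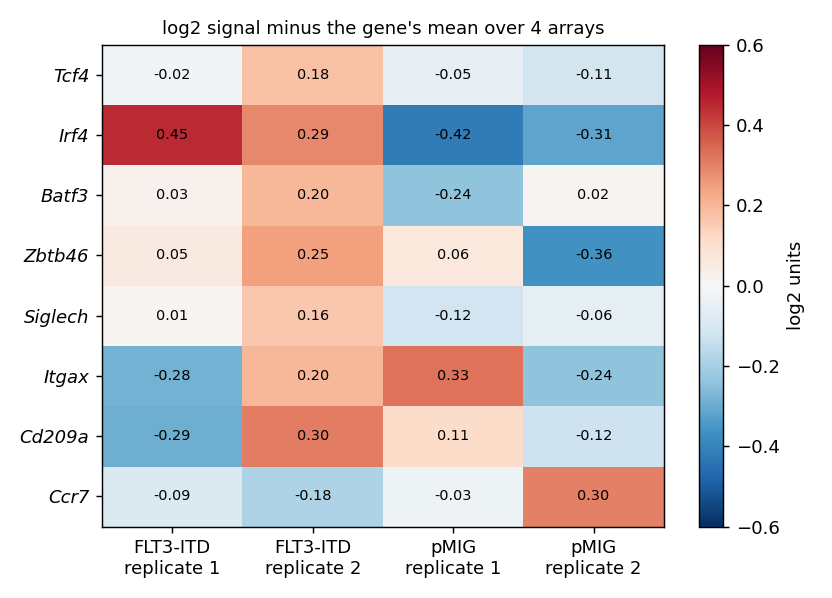
Normalized log2 signal of the 8 tested members minus each gene's mean over the 4 arrays (rows are genes, columns are arrays, colour and printed numbers are log2 units). Irf4 is positive on both FLT3-ITD arrays (0.45 and 0.29) and negative on both pMIG arrays (-0.42 and -0.31), whereas Itgax and Cd209a are positive on FLT3-ITD replicate 2 and pMIG replicate 1.

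The chemokine receptors gave little signal. CCR7 guides mature dendritic cells and lymphocytes to lymph nodes. The Ccr7 probe (ILMN_2821118) was detected on all 4 arrays, reading 115 and 116 in FLT3-ITD cells, against 123.5 and 126.2 in pMIG cells. Both FLT3-ITD arrays were below both pMIG arrays, and Ccr7 was the one tested member with the groups apart in this direction, which 26.8% of all genes tested showed. Normalized log2 signals averaged 5.17 ± 0.07 for FLT3-ITD and 5.44 ± 0.24 for pMIG (SD, n = 2 each), which differ by -0.27 (SE 0.16) that did not pass (adjusted p = 0.431; fold 95% interval 0.623 to 1.10). Of its ligand genes, Ccl21a was not detected well enough to be tested, and Ccl19, detected on both FLT3-ITD arrays and neither pMIG array, had normalized log2 signals of 4.51 and 4.48 in FLT3-ITD cells, against 4.35 and 4.51 in pMIG cells, which overlap.

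CCR9 is carried by plasmacytoid dendritic cells and gut-homing T cells, and XCR1 by cDC1 cells. The Ccr9 probe (ILMN_2623009) read 87.8 and 92 in FLT3-ITD cells, against 96.9 and 94.7 in pMIG cells. The Xcr1 probe (ILMN_2497004) read 91.1 and 91.5 in FLT3-ITD cells, against 94.4 and 87.6 in pMIG cells. The lowest detection p of these probes was 0.555, so no difference between the groups can be given. A transcript that the probes miss, or one below the array's limit, would not be seen.

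**Figure D3:**
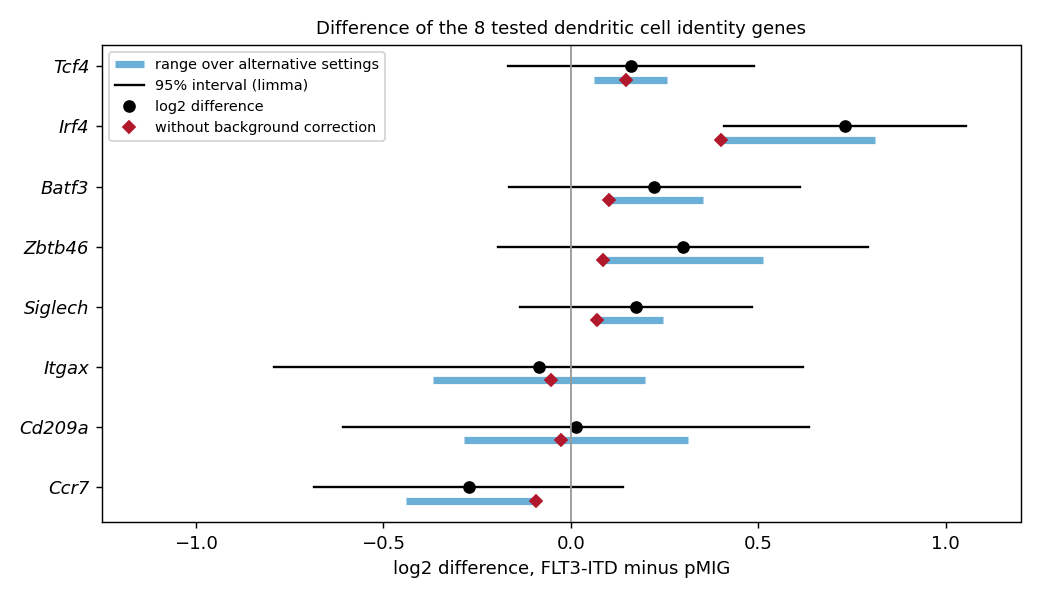
Log2 difference (FLT3-ITD minus pMIG) of the 8 tested members with the 95% interval from limma (black), the range over the alternative settings (blue) and the value without background correction (red). The interval of Irf4, at 0.73, lies wholly above 0 and those of the other 7 include 0.

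The 7 other lists of dendritic genes (transcription factors, subset and maturation markers, growth factor genes, and partners or ligands of the members), with 74 genes that had a probe, gave 55 that could be tested. None passed over all genes in limma (0 of 55), while 22 were higher and 3 lower in FLT3-ITD at an unadjusted p under 0.05, against 8.9% higher and 9.1% lower among all genes tested. Groups did not overlap for 30 of the 55 on the higher side and 5 on the lower side, against 23.8% and 26.8% of all genes. The median difference of the 55 was 0.25. The lists were chosen with earlier results of these data known, so their counts beside those of all genes describe them and are no test. Among the 49 that were detected on all 4 arrays, 20 were higher at an unadjusted p under 0.05, against 8.73% of all genes so detected. With a variance trend 13 of the 55 passed, 12 higher and 1 lower. In that setting 10.2% of all genes passed, 504 of 9948 as higher and 514 as lower.

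Of 12 tested transcription factor genes, 7 were higher at an unadjusted p under 0.05 and the median difference was 0.34. Id2 encodes a protein that holds E proteins such as TCF4 in check and is needed for cDC1 cells. Id2 gave raw intensities of 376.4 and 403.7 in FLT3-ITD cells, against 316.8 and 267.7 in pMIG cells. The groups were apart, with a log2 difference of 0.61 (SE 0.11, adjusted p = 0.139), or 0.0023 with a variance trend. Its second probe differed by 0.30. Relb, an NF-κB subunit gene used in dendritic cell maturation, differed by 0.60, the MYC family gene Mycl by 0.52 and Bcl6 by 0.46 (adjusted p of 0.158 to 0.188). Irf8, the relative of Irf4 that directs cDC1 and plasmacytoid development, named here for that relation after its value was seen, differed by 0.14 (SE 0.11, adjusted p = 0.574). No probe was listed under Runx2 or Nfil3.

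Genes of the cDC1 kind were mostly out of reach, as 6 of the 10 with a probe, among them Clec9a, Cd8a and Tlr3, were not detected well enough to be tested. Itgae, which encodes the integrin CD103 of cDC1 and of some T cells, read 247.9 and 264.1 in FLT3-ITD cells, against 175.8 and 154.3 in pMIG cells. The log2 difference was 1.12 (SE 0.11, adjusted p = 0.0597), and 1.43 on the second probe detected on all arrays. The other 4 Itgae probes, detected on 3 arrays or fewer, differed by 0.0094 to 0.18. It passed under 6 of the 15 alternatives, and with the mean of its probes the difference was 0.72 (adjusted p = 0.169). The inhibitory receptor gene Btla differed by 0.68 and the sorting nexin gene Snx22 by -0.19 (adjusted p = 0.154 and 0.672). Cd24a read 112.5 and 152.7 in FLT3-ITD cells, against 140.9 and 127.5 in pMIG cells, and the groups overlapped. In the cDC2 list 5 of 10 genes were tested. Sirpa, which encodes the receptor of the CD47 signal, differed by 0.30, the lectin genes Clec10a and Mgl2 by 0.24 and 0.37, and Esam, an adhesion molecule gene, by -0.41 (adjusted p of 0.191 to 0.435).

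Of 9 tested genes of plasmacytoid cells, 3 were higher and 1 lower at an unadjusted p under 0.05. Pld4, an endolysosomal nuclease gene, read 778.7 and 879 in FLT3-ITD cells, against 521.2 and 506 in pMIG cells. Both FLT3-ITD arrays were well above both pMIG arrays, and the log2 difference was 0.84 (SE 0.13, adjusted p = 0.123). Ly6d differed by 0.79 and Klra17 by 0.71, and Klra17 was detected on 1 of 2 pMIG arrays. Ptprs, a receptor phosphatase gene, differed by -0.43. The other 5 tested genes of the list had an unadjusted p above 0.05.

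Of 9 tested maturation genes 4 were higher at an unadjusted p under 0.05, and so were 2 of 4 growth factor genes. Cd86, the ligand gene for CD28, read 371.2 and 331.1 in FLT3-ITD cells, against 190 and 194.6 in pMIG cells. The groups were far apart, with a log2 difference of 1.33 (SE 0.20, adjusted p = 0.118), and its other probes gave 1.09 and 1.46. Cd40 differed by 0.83, Cd80 by 0.62 and the chemokine gene Ccl17 by 0.52. Cd83 went the other way, by -0.42 (SE 0.24, adjusted p = 0.431), with the normalized groups apart and the raw groups overlapping. Fscn1, Pdcd1lg2, Il4i1 and Cd274 differed by 0.30, 0.30, 0.14 and 0.054. Ccl22 and Il12b were not detected well enough to be tested. The other Cd40 probes, detected on neither pMIG array, differed by 0.87, 0.42 and 0.19. Csf2rb, the signalling chain of the receptors for GM-CSF and interleukin-3, differed by 1.02 (SE 0.13, adjusted p = 0.0992). Its other probes differed by 1.43 and, on the probe detected on 1 of 2 pMIG arrays, by 0.29. The ligand-binding partner Csf2ra differed by 0.34. The Flt3 probe and that of Csf2 were not detected well enough to be tested, Flt3l differed by 0.18, and Csf1r by 0.0033 on its brightest probe and 0.44 on its second. Among partners of the members, Junb and Jun, with whose products BATF3 pairs, differed by 0.79 and 0.64, Batf2 by 0.74 and the E protein gene Tcf12 by -0.34 (adjusted p of 0.126 to 0.262).

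Many of these differences were smaller by more than 1.5 times without background correction. In that setting Itgae differed by 0.67, Csf2rb by 0.65, Ly6d by 0.43, Jun by 0.36, Btla and Cd40 by 0.30 each, Relb and Cd80 by 0.27 each, Ccl17 by 0.24, Batf2 by 0.23, Klra17 by 0.20 and Mycl by 0.14. On the lower side Esam then differed by -0.25, Tcf12 by -0.19 and Snx22 by -0.073. Pld4, Cd86, Junb and Id2 then differed by 0.73, 0.90, 0.70 and 0.47.

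**Figure D4:**
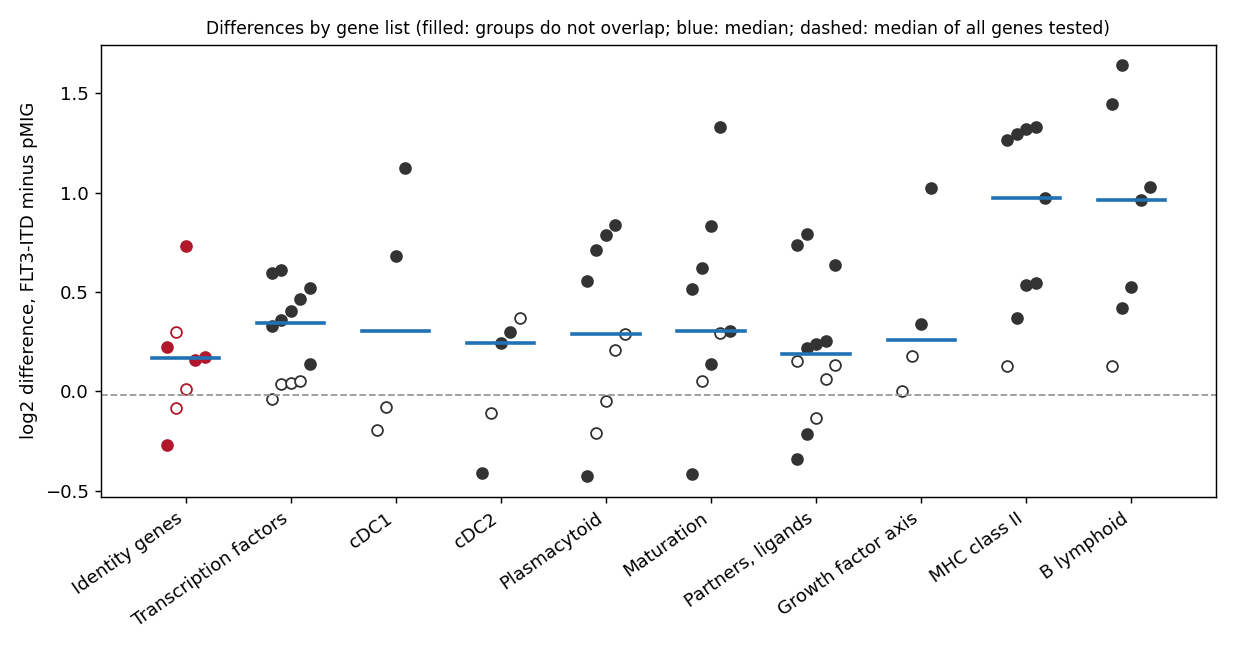
Log2 difference (FLT3-ITD minus pMIG) of each tested gene by list, with the list median in blue and the median of all genes tested, -0.02, as a dashed line. Filled points are genes whose 2 FLT3-ITD and 2 pMIG arrays do not overlap. The identity genes (red) lie between -0.27 and 0.73, and the MHC class II and B lymphoid lists have medians of 0.98 and 0.96.

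The MHC class II genes, which dendritic cells, B cells and macrophages all express, had a median difference of 0.98 with 8 of 9 higher at an unadjusted p under 0.05 and 0 passing over all genes (H2-Ab1 at 1.27, adjusted p = 0.0506). Markers of the B lymphoid lineage, in which Irf4, Tcf4, Spib, Btla, Ly6d, Cd40 and Cd86 are also known to be expressed, had a median of 0.96. Of 12 such markers 7 could be tested, 6 were higher at an unadjusted p under 0.05 and 0 passed. Their summed background-corrected signal was 1520 and 1608 in FLT3-ITD cells, against 763.1 and 780.7 in pMIG cells, and Pax5 and Ms4a1 were not detected well enough to be tested. Of 13 tested monocyte and macrophage markers 4 were higher (Fcgr1 by 0.93, Mrc1 by 0.56, Cd68 by 0.43 and C1qb by 0.40) and 2 lower (Vcam1 by -0.56 and Lyz2 by -0.35) at an unadjusted p under 0.05, with a median difference of 0.0095. They summed to 10525 and 10864 in FLT3-ITD cells, against 12111 and 12001 in pMIG cells. Without Lyz2, the brightest of them and left out after its values were seen, the sum was 4252 and 4362 in FLT3-ITD cells, against 3791 and 3977 in pMIG cells. Of 11 mast cell, basophil and eosinophil genes 8 were lower at an unadjusted p under 0.05 (median -0.73), and of 9 megakaryocyte and platelet genes 6 were lower and 2 higher (median -0.81), with Alox12 (-1.84, adjusted p = 0.0439) and Treml1 (-1.40, adjusted p = 0.0473) passing over all genes. Of 6 NK cell genes Klrd1 passed as higher (1.90, adjusted p = 0.0482). At an unadjusted p under 0.05, 2 of the NK genes were higher and 1 lower (Nkg7 by -0.47), with a median difference of 0.0084. The 6 summed to 3783 and 3836 in FLT3-ITD cells, against 4538 and 5276 in pMIG cells. Most of that sum came from Nkg7, the brightest of them, and the sum without Nkg7 was not computed. Of 12 neutrophil genes 3 were higher (Cxcr2 by 1.46, Mmp9 by 0.92 and Mmp8 by 0.56) at an unadjusted p under 0.05. In that list 2 were lower (Mpo by -0.43 and Prtn3 by -0.30), and the median difference was 0.081. Of 9 stem and progenitor genes 3 were lower and 0 higher at an unadjusted p under 0.05 (median -0.20). Those 3 were Cd34 by -0.62, Myb by -0.56 and Angpt1 by -0.97. The part of these cell types in the values of Irf4 and of the other dendritic genes was not tested.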

How the data were processed

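RNA of 4 samples was hybridised as biotinylated cRNA to Illumina bead arrays, per the labels' protocols. Every probe has a non-normalized intensity in the table the authors deposited. Each also carries a detection p-value, per the file headers, whose method is not given in the sources used here. A second deposited table holds log2 values, which follow the order of the intensities within each array (rank correlation 1) and have medians of 4.79 to 4.80; their making is not stated, and they were used as 1 of the alternatives.

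Background was removed by normexp (limma 3.58.1, R 4.3.3), estimating its mean and spread through the detection p-values. An offset of 16 was added before quantile normalization and log2. Fold changes of dim probes depend on that offset. Probes with a detection p under 0.05 on at least 2 arrays were kept (14178). The probe with the highest mean stood for its gene. FLT3-ITD was compared with pMIG by limma's linear model with empirical Bayes moderation, two-sided, adjusted over 9948 genes. The model fit, but not the background correction or normalization, was tested on simulated data. There the spread of a gene did not depend on its signal, so the choice of a variance trend was not tested. Precision is limited by the number of arrays. The members and lists were chosen with earlier results of these data known. Besides the 10 members, up to 4 tested genes of each dendritic list with the smallest p are named, and partners or ligands beside their member. Irf8, Cd83, Fscn1, Pdcd1lg2, Il4i1, Cd274 and the genes of other lineages were named after their values were seen. Alternatives changed the background correction, offset, scaling, filter, probe choice, moderation, replicate block and arrays used.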

Additional observations from a re-analysis of the deposited data

How the results depend on the processing

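The counts of passing genes depended on the processing, and the cause was not tested. Of all genes 19 passed, against 896 without background correction, 387 with an offset of 50, 11 with no filter on dim probes, 71 among genes detected on all 4 arrays, 38 with the authors' deposited values, 1040 with a variance trend and robust moderation, 1018 with the trend alone and 41 with the mean of a gene's probes. With any 1 array left out 0 passed, with 1140 to 1336 at an unadjusted p under 0.05 (the lone array of a group is then assumed to vary like the others). Of the members 0 passed, and 1 (Irf4) without background correction, with an offset of 50 and with either trend setting. Of the other dendritic genes 0 passed, against 12 without background correction, 8 with an offset of 50, 2 among genes detected on all arrays, 1 with the authors' deposited values, and 13 with either trend setting. With an array left out no gene at all passed, so the members' 0 there says nothing; 1 to 3 members then had an unadjusted p under 0.05.

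The adjusted p of Irf4 ran from 0.00865 to 0.410 over its 15 alternatives and its difference from 0.40 to 0.81. Siglech, Tcf4, Batf3, Ccr7 and Zbtb46 kept their direction and did not pass under any alternative, but their size moved with single arrays. With 1 array left out Siglech ran from 0.10 to 0.25, Tcf4 from 0.063 to 0.26, Batf3 from 0.093 to 0.35, Zbtb46 from 0.088 to 0.51 and Ccr7 from -0.44 to -0.10. Zbtb46 (0.51) and Ccr7 (-0.44) were farthest from 0 without pMIG replicate 1. Itgax turned to 0.16 without FLT3-ITD replicate 1 and 0.20 without pMIG replicate 1 (range with 1 array left out -0.37 to 0.20). Cd209a turned to -0.026 without background correction, -0.0072 with the authors' deposited values, -0.28 without FLT3-ITD replicate 2 and -0.10 without pMIG replicate 2 (range -0.28 to 0.31). Snx22 turned to 0.058 (range -0.44 to 0.058) and Cd24a to 0.43 (range -0.59 to 0.43) without FLT3-ITD replicate 1, Flt3l to -0.079 (range -0.079 to 0.44) without pMIG replicate 2, and Csf1r to -0.0075 with median scaling, -0.32 without FLT3-ITD replicate 2 and -0.11 without pMIG replicate 1 (range -0.32 to 0.33).

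A block for replicate number left 6 passing genes, 0 of them members or other dendritic genes. Deviations of same-numbered arrays did not go together (correlation -0.018 across genes), so the numbers were not taken as pairs. Signals near background limit Ccr9, Xcr1, Itgax, Cd209a and Zbtb46.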
